A study of Mus musculus with 4 samples.

Results

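The cells described here are fibroblast-like cells of the mouse heart ventricle at E12.5 (embryonic day), picked from single-cell libraries by the transcripts they carried. A barcode was taken when it had at least 1000 genes, under 10% mitochondrial UMIs (unique molecular identifiers, which mark each captured transcript once) and under 1% of its UMIs from 8 cardiomyocyte genes. It also needed at least 4 UMIs of Tcf21, Col14a1, Tnxb and Spon2 together with at least 2 of those 4 genes detected, and at least 1 UMI of Pdgfra. Cells with more than 1 UMI of the epicardial genes Upk3b, Upk1b and Msln, or of the endothelial genes Cdh5, Pecam1 and Emcn, were left out. The rule kept 1608 cells of 61172 barcodes, of which 42246 met the gene and mitochondrial limits and 15568 met the cardiomyocyte limit too. Levels of the rule's own genes describe that choice, and none of them was tested.

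Tcf21 encodes a basic helix-loop-helix factor that mouse epicardial cells need to form cardiac fibroblasts, and Pdgfra encodes the receptor through which platelet-derived growth factor acts on those cells. Fibroblasts of the ventricle wall come mostly from the epicardium, the mesothelial sheet on the surface of the heart, whose cells undergo an epithelial to mesenchymal transition and move into the muscle. A second mesenchyme fills the endocardial cushions, arises mostly from endocardium and builds the valves.

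Both groups of embryos carried the Rosa26mTmG/+ reporter and Cdh5(Pac)-CreER, a tamoxifen-dependent recombinase driven by an endothelial cadherin promoter, and both received tamoxifen at E9.5. KO embryos were Gata4fl/fl with 2 floxed alleles of the transcription factor gene Gata4, and het embryos were Gata4fl/+ with 1; no embryos without Cre or tamoxifen were analysed here. The mTmG reporter makes cells change from a red to a green fluorescent protein once Cre has acted, so the deletion and the green label both mark endothelium, endocardium and what descends from them. Each group had 2 libraries of dissociated ventricle cells. Whether 1 embryo or several went into each library is not given, so p-values measure only the spread between libraries, which may be partly technical.

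The 2 KO libraries held 171252072 and 137890971 UMIs, and the 2 het libraries 156491597 and 190207638. Among the fibroblast-like cells, the median was 18537 and 33661 UMIs per cell in the KO libraries and 17500 and 21848 in the het libraries. No barcode of these cells occurred in more than 1 library. The libraries differed in other ways that bear on later values. Library het 1 listed no barcode under 1841 UMIs and had a median of only 6465.5 UMIs over its cells within all limits. KO 2 fibroblast-like cells had the least haemoglobin RNA, 0.736% of their UMIs, against 4.72% in KO 1, 2.16% in het 1 and 2.02% in het 2.

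Fibroblast-like cells numbered 456 and 362 in KO libraries and 231 and 559 in het libraries. As a share of cells within all limits this was 9.79% and 14.1% in KO libraries and 5.89% and 12.7% in het libraries, with a 95% Wilson interval for counting error of 8.97% to 10.7% in KO 1. The difference of 2.65 percentage points (11.9 ± 3.02% in KO and 9.28 ± 4.80% in het, SD, n = 2 each) was smaller than the spread between libraries (two-sided exact permutation p = 0.667, adjusted p = 0.833 over 5 tests of shares and reporter values, where the smallest p that 2 against 2 libraries can give is 0.333). Without het 1, the shallowest library, KO was lower by 0.745 points instead. With every cell thinned to 3000 UMIs before the rule was applied, the shares were 3.09% and 3.41% in KO and 1.80% and 2.30% in het.

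Tcf21 was detected in 95.5% of the fibroblast-like cells, Col14a1 in 89.9%, Spon2 in 88.0% and Tnxb in 55.0%, and 780 cells (48.5%) held transcripts of all 4. At the edge of the rule, 88 cells had exactly 4 UMIs of these genes, while 92 cells that met every other limit had 3 and stayed out. Another 220 cells met the Tcf21 and Pdgfra limits but carried more than 1 UMI of Upk3b, Upk1b and Msln. Among doublet calls by Scrublet, 13 and 2 fell on fibroblast-like cells of the KO libraries and 0 and 8 on those of the het libraries, with a score limit of 0.306 that Scrublet set in het 2 and that was applied to the other libraries after their scores had been seen.

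Of 24 genes of a fibroblast marker list, 22 had enough UMIs for a test, which shows presence and not identity. Against the epicardial cells described below, 13 of 24 were higher and 8 lower (all genes 31% and 32.1%). Against the cushion mesenchyme described below, 14 of 23 were higher and 8 lower (all genes 24.9% and 24.3%). Apart from housekeeping transcripts such as Eef1a1 and Tpt1, the 20 transcripts with most UMIs included Vim (3182 CPM, counts scaled to a total of 1e+06 UMIs, with no further scaling), an intermediate filament of mesenchyme, Col3a1 (2567 CPM), a fibrillar collagen, Ptn (3718 CPM), a secreted heparin-binding growth factor, and the imprinted RNA H19 (2587 CPM). H19, Col3a1 and Vim were not particular to the population. H19 was at 3829 to 4762 CPM and Col3a1 at 2003 to 3127 CPM in epicardial cells, and Vim at 3184 to 4139 CPM in cushion mesenchyme. Ptn was higher than in both. Of 17 markers of adult fibroblasts not all were there: Pi16, Ly6a and Clec3b were among those too low to be tested. Against epicardial cells, 4 of 11 were higher and 7 lower (all genes 31% and 32.1%). Against cushion mesenchyme, 4 of 10 were higher and 5 lower (all genes 24.9% and 24.3%). Summed over 25 Hox genes, which mark trunk mesenchyme, the level was 7.26 and 11.6 CPM in KO and 9.91 and 12.7 CPM in het fibroblast-like cells, with 14 to 20 of the 25 genes at 0 in each library. Summed over 16 cardiomyocyte genes, 8 of them limited by the rule, it was 2021 and 838 CPM in KO and 2165 and 1090 CPM in het. Whether that RNA came from the cells or from the suspension was not tested. The 10 macrophage markers summed to 160 and 8.37 CPM in KO and 27.1 and 81.4 CPM in het. The wording epicardium-derived describes an origin that a snapshot without an epicardial lineage label does not measure.

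The fibroblast-like cells were first set against epicardial cells of the same libraries, the surface layer itself, to see where the 2 populations part. The 894 epicardial cells had at least 4 UMIs of Upk3b, Upk1b and Msln with at least 2 detected, and at most 1 of Cdh5, Pecam1 and Emcn. They numbered 311 and 144 in KO libraries and 258 and 181 in het libraries. Tcf21, Col14a1, Tnxb, Spon2 and Pdgfra were not limited in them, so some of the 220 cells above can be included. Those 5 genes summed to 308 to 372 CPM in epicardial and 1238 to 1428 CPM in fibroblast-like cells. UMIs were summed per library and population and tested with edgeR's quasi-likelihood test with the library as a block and Benjamini-Hochberg adjustment. Since both populations were set apart on UMIs of the same cells, genes that travel with the rule's genes differ by choice, and the counts describe how far apart the populations lie. Of 14085 genes tested, 8889 (63.1%) passed an adjusted p of 0.05, 4364 (31%) higher and 4525 (32.1%) lower in the fibroblast-like cells; with a fold of at least 2 as well, 1349 (9.58%) were higher and 1930 (13.7%) lower. The median log2 difference over all genes was -0.01.

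The 12 genes with the largest lower differences from epicardial cells were near 0 in fibroblast-like cells; since cells with more than 1 UMI of Upk3b, Upk1b and Msln were left out, this was partly set by the choice of cells. Krt18, a keratin of simple epithelia, was at 2.07 and 1.46 CPM in KO and 3.58 and 1.91 CPM in het fibroblast-like cells (here and below, CPM between populations are scaled by TMM, edgeR's library size correction), against 225 and 329 CPM in KO and 240 and 350 CPM in het epicardial cells (log2 difference -7.18, SE 0.1603). Muc16, a mesothelial surface mucin, was lower by a log2 difference of -10.74 (SE 0.1599), Krt7 by -9.42 and Npnt, an epithelial basement membrane ligand of integrin, by -7.22. The other genes among the 12 with the largest lower differences were Lrp2, Tm4sf5, Lrrn4, Cybrd1, Egfl6, Il18, Gpm6a and Pkhd1l1, at log2 differences between -9.72 and -7.14. In each of these genes all 4 fibroblast-like sums lay below all 4 epicardial sums.

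All 16 epicardial markers tested were lower in the fibroblast-like cells (all genes 32.1%), with a median log2 difference of -6.61. This was partly set by the choice of cells. Markers near 0 in fibroblast-like cells could also pass the count filter only through the epicardial sums, so the count is a description. The transcription factors Wt1 and Tbx18, picked from these markers, were lower by much less than the keratins Krt7 and Krt18. Wt1, a zinc finger factor of epicardium, stood at 96.8 and 103 CPM in KO and 95.3 and 78.1 CPM in het fibroblast-like cells, against 316 and 312 CPM in KO and 270 and 297 CPM in het epicardial cells (log2 difference -1.69, SE 0.0711). Tbx18, a T-box factor of epicardium and mural precursors, averaged 79.97 ± 2.502 CPM in fibroblast-like and 319 ± 31.6 CPM in epicardial cells (SD, n = 4 libraries each; log2 difference -1.99). Sema3d, a secreted semaphorin, was lower by -1.52. Aldh1a2, the enzyme that makes retinoic acid in the epicardium, was lower by -4.23, at 26.5 ± 2.53 CPM in fibroblast-like and 492 ± 38.5 CPM in epicardial cells. For each of these 4 genes all fibroblast-like sums lay below all epicardial sums.

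**Figure D1:**
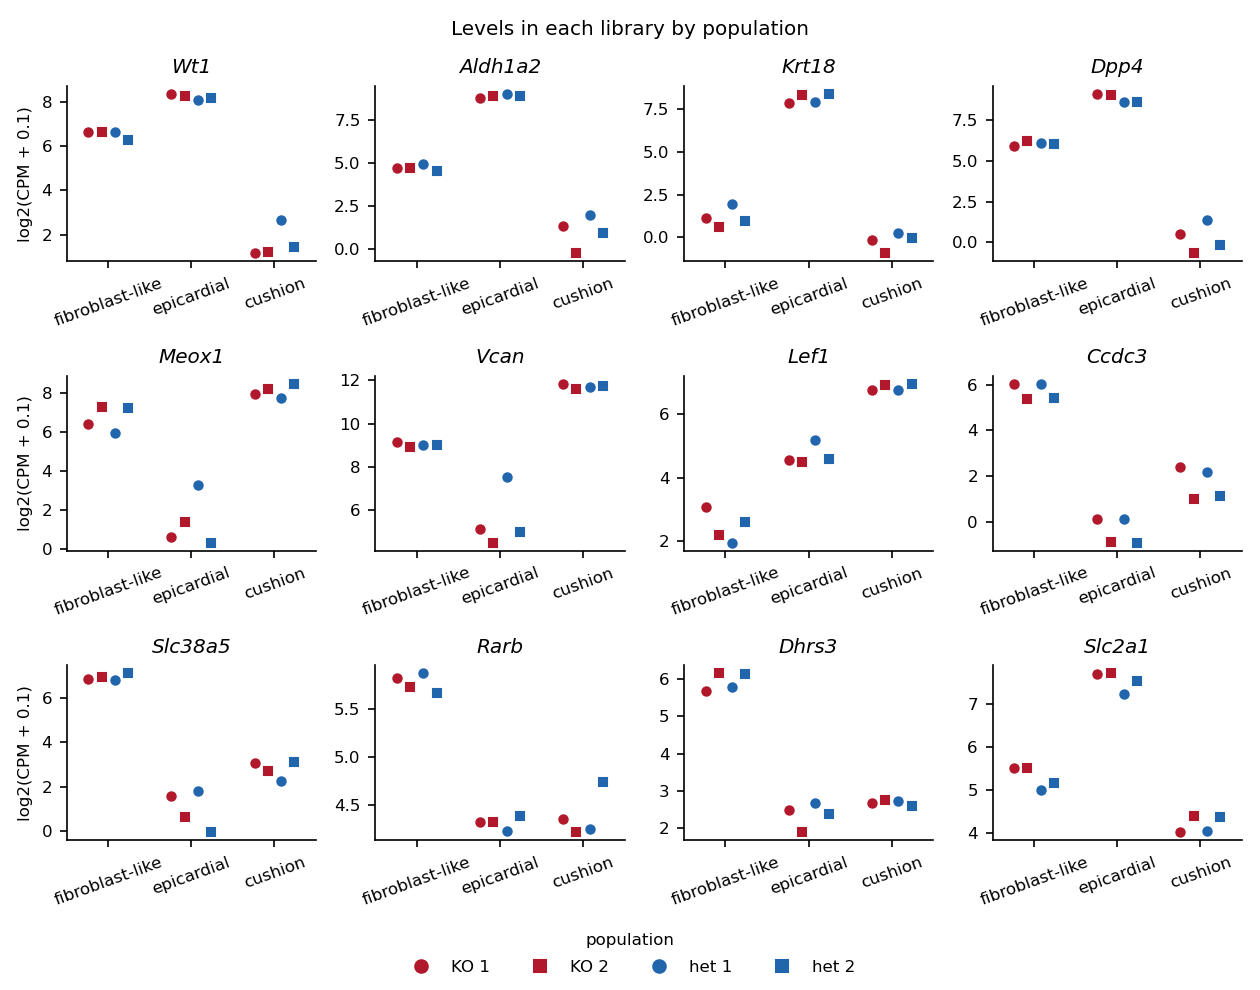
Level of 12 genes in fibroblast-like cells, epicardial cells and cushion mesenchyme, as log2(CPM + 0.1) of summed UMIs without TMM scaling (y axis; scales differ between panels), 1 point per library, KO red and het blue. Wt1, Aldh1a2 and Dpp4 lie between the other populations, Vcan and Meox1 between epicardial cells and cushion mesenchyme from the other side, and Ccdc3, Slc38a5, Rarb and Dhrs3 lie above both in all 4 libraries.

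The 12 genes with the largest higher differences from epicardial cells were above them in 4 of 4 libraries. Ccdc3, a secreted factor, was at 64.5 and 42.3 CPM in KO and 61.8 and 43.8 CPM in het fibroblast-like cells, against 0.955 and 0.448 CPM in KO and 0.991 and 0.447 CPM in het epicardial cells (log2 difference 6.23, SE 0.145; adjusted p = 5.74e-11, edgeR). Sparcl1, a matricellular protein, followed at 6.11, Slc38a5, an amino acid transporter, at 5.92 and Pid1 at 5.73. Meox1, a homeobox factor of somites and fibroblasts, was at 81.7 and 158 CPM in KO and 57.8 and 152 CPM in het fibroblast-like cells and at 1.38, 2.54, 9.58 and 1.19 CPM in epicardial cells of KO 1, KO 2, het 1 and het 2 (log2 difference 5.41, SE 0.365). Meox1 thus varied between libraries within both groups, with the replicate 2 library the higher one each time. Tgfbi (5.09), Vcam1 (4.83), Kcnn3 (4.49), Gask1b (4.48), Pde1a (4.34), Adam19 (4.15) and Mecom (3.90) completed the 12. In epicardial cells of het 1, which had a median of 6039 UMIs, Vcan was at 186 CPM, against 23.1 to 33.4 CPM in the other 3 epicardial sums, whereas the summed mesenchymal transcription factors were at 3775 CPM there and at 3489 to 4000 CPM in the others. What part this had in the differences was not tested, and both Vcan (log2 difference 3.41) and Meox1 remained higher in fibroblast-like cells within each library.

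Factors of epithelial to mesenchymal transition were among the genes that stood higher. Zeb2, a repressor of epithelial genes, was at 317 and 245 CPM in KO and 280 and 255 CPM in het fibroblast-like cells, against 26.2 and 27.2 CPM in KO and 38.6 and 28.9 CPM in het epicardial cells (log2 difference 3.22, SE 0.0995). Snai2 (2.81), Snai1 (2.40) and Zeb1 (1.45) were higher too. Of 33 mesenchymal transcription factors tested, 22 were higher and 7 lower (all genes 31% and 32.1%), with a median log2 difference of 1.56. The 7 lower ones included Plagl1, an imprinted zinc finger factor (-3.39), and Klf4 (-2.56). Gata4 itself did not differ beyond the spread between libraries, at 94.1 ± 6.57 CPM in fibroblast-like and 95.0 ± 10.7 CPM in epicardial cells (log2 difference -0.000524, SE 0.0617).

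The second population was cushion mesenchyme, defined by at least 4 UMIs of Sox9, Postn, Twist1 and Msx1 with at least 2 detected, at least 1 of Pdgfra and at most 1 of Tcf21, Col14a1, Tnxb and Spon2. Its limits on Upk3b, Upk1b and Msln and on Cdh5, Pecam1 and Emcn were those of the fibroblast-like rule. It held 1915 cells, 511 and 371 in KO libraries and 276 and 757 in het libraries. Its 4 marker genes were left out of the test. Here too, genes that travel with the genes of either rule differ by choice, and the counts describe how far apart the populations lie. Of 14287 genes, 7022 (49.1%) passed, 3554 (24.9%) higher and 3468 (24.3%) lower in the fibroblast-like cells; 770 (5.39%) and 1031 (7.22%) did so by a fold of at least 2. The median log2 difference over all genes was -0.01.

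Against cushion mesenchyme the epicardial factors stood out on the other side. Wt1 was at 101 and 105.3 CPM in KO and 99.4 and 79.97 CPM in het fibroblast-like cells, against 2.05 and 2.22 CPM in KO and 6.17 and 2.61 CPM in het cushion cells (log2 difference 5.07, SE 0.146). Of 12 epicardial markers tested here, 9 were higher and 1 was lower (all genes 24.9% and 24.3%), with a median of 1.501. Among them Aldh1a2 was higher by 3.85, Sema3d by 2.44 and Tbx18 by 1.41. With cells thinned to 3000 UMIs, 5 of 5 testable markers were higher, where 1680 of all 9635 genes tested were. Markers near 0 in cushion cells could pass the count filter only through the fibroblast-like sums, so both counts were partly set in advance. By the log2 differences given, the fibroblast-like cells held intermediate levels of Wt1, Tbx18, Sema3d and Aldh1a2, between the 2 other populations.

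Dpp4, a cell surface peptidase found on fibroblast progenitors of several tissues, had the largest higher difference from cushion cells. It was at 62.0 and 79.5 CPM in KO and 67.6 and 69.9 CPM in het fibroblast-like cells, against 1.28 and 0.528 CPM in KO and 2.41 and 0.791 CPM in het cushion cells (log2 difference 6.09, SE 0.172; adjusted p = 1.01e-10, edgeR). It was lower than in epicardial cells (-2.79). Ogn, a small leucine-rich proteoglycan, was higher than in cushion cells by 5.78. Gucy1a1, a subunit of the soluble guanylate cyclase that nitric oxide activates, was at 633 and 693 CPM in KO and 679 and 786 CPM in het fibroblast-like cells, against 13.7 and 10.1 CPM in KO and 11.3 and 18.3 CPM in het cushion cells (5.68). Its partner subunit Gucy1b1, chosen after its values were seen, was higher than in cushion cells by 3.41 and than in epicardial cells by 3.81. The remaining 8 of the 12 were Mme, Kcnn3, Svep1, Kcne1l, Slc38a5, Ccdc3, Lsp1 and Sytl2.

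Genes lower than in cushion mesenchyme were led by Wnt16 (-5.78), a Wnt ligand. Lef1, a transcription factor and target of canonical Wnt signalling, was at 8.32 and 4.64 CPM in KO and 3.73 and 6.26 CPM in het fibroblast-like cells, against 103 and 120 CPM in KO and 106 and 122 CPM in het cushion cells (log2 difference -4.28). Dpt, dermatopontin, a matrix protein of fibroblasts, was also lower (-4.65), as were Sall3, Tmem132c, Angpt1, Bmper, Ptprb and Htra1. The cartilage-type collagens Col9a1 (-3.95) and Col9a3 (-3.51) and the hyaluronan link protein Hapln1 (-3.45) were among the 12 as well. Of 16 cushion markers tested, 14 were lower and 1 higher (median -2.08, all genes 24.3% and 24.9%), which was partly set by the choice of cells. Vcan, the large hyaluronan-binding proteoglycan of the cushions, averaged 530 ± 30.4 CPM in fibroblast-like and 3268 ± 214 CPM in cushion cells (SD, n = 4 libraries each; log2 difference -2.62). Set against epicardial cells, 16 of 19 cushion markers were higher and 3 lower (all genes 31% and 32.1%). Of the 15 tested in both comparisons, 11 stood above epicardial and below cushion cells (all genes 6.01%).

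**Figure D2:**
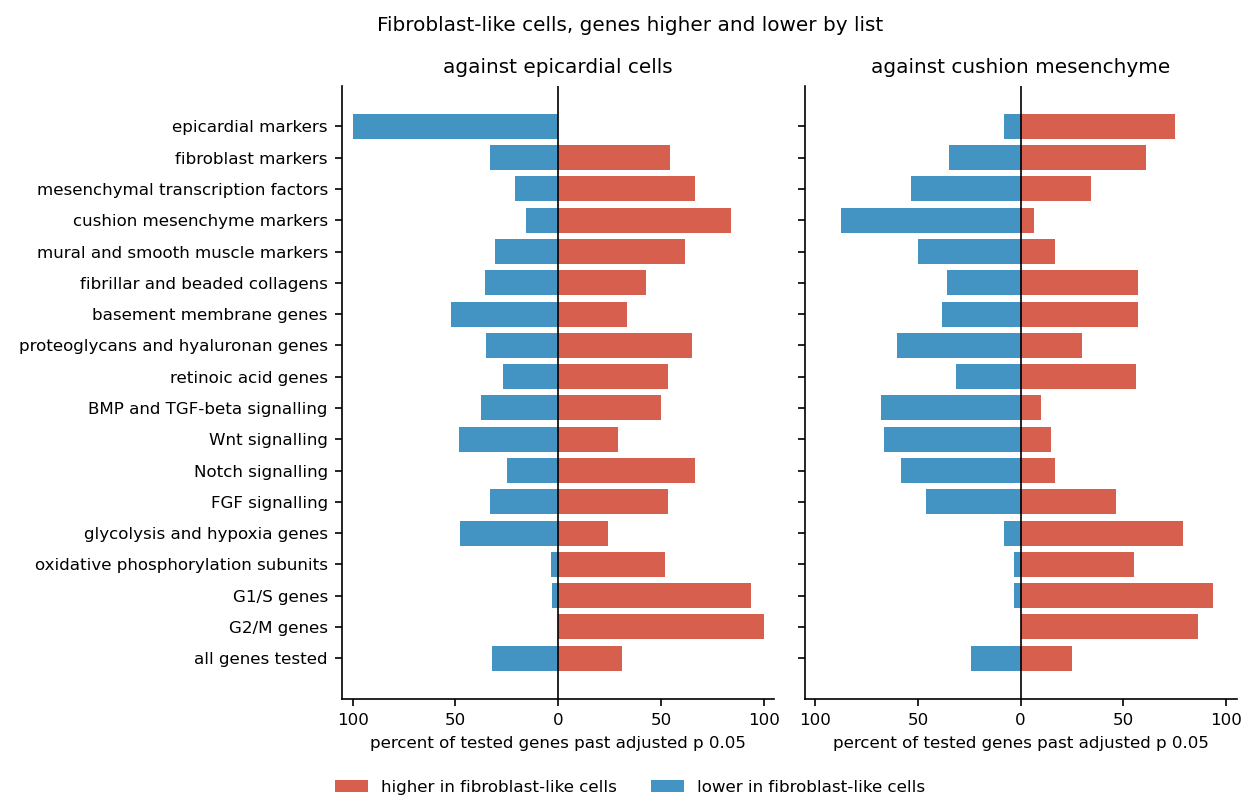
Percent of the tested genes of 17 lists, and of all genes, that passed an adjusted p of 0.05 (edgeR), higher (right, red) or lower (left, blue) in fibroblast-like cells than in epicardial cells (left panel) or cushion mesenchyme (right panel). All 37 G2/M genes were higher against epicardial cells and 32 against cushion mesenchyme, while 18 of 27 Wnt genes and 21 of 31 BMP and TGF-beta genes were lower against cushion mesenchyme.

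Across both comparisons 13536 genes were tested, and 1806 of them (13.3%) were higher in fibroblast-like cells than in either population, 1310 (9.68%) lower than in both, 871 (6.43%) below epicardial and above cushion cells and 813 (6.01%) above epicardial and below cushion cells. With a fold of at least 2 on both sides, 261 genes were above and 272 below both. The comparisons share the fibroblast-like sums, so the 2 differences of a gene are not independent. Hic1, a zinc finger repressor found in quiescent mesenchymal progenitors of adult mouse tissues, was at 103 and 107 CPM in KO and 106 and 107 CPM in het fibroblast-like cells, against 6.69, 9.40, 8.59 and 9.68 CPM in epicardial cells of KO 1, KO 2, het 1 and het 2 (log2 differences 3.63 from epicardial and 3.25 from cushion cells). Osr1, a factor of fibrogenic progenitors, was above both by 2.67 and 2.96. Osr1 varied between libraries, at 23.3 and 45.1 CPM in KO and 25.03 and 40.97 CPM in het fibroblast-like cells. Lsp1, an actin-binding protein, was above both by 2.53 and 4.13, and Dpep1, a membrane dipeptidase, by 4.55 and 6.76. Integrin subunits Itga4 (3.74 and 1.47) and Itga8 (3.31 and 1.40), receptors for fibronectin and related ligands, were above both as well, in every library.

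The fibrillar collagen genes Col1a1 and Col1a2 were lower than in epicardial cells (log2 differences -0.81 and -0.97) and higher than in cushion cells (0.95 and 0.78). Col1a1 was at 1529 and 2061 CPM in KO and 1547 and 1667 CPM in het fibroblast-like cells. The beaded collagen genes Col6a1 and Col6a2 were higher than in epicardial cells by 3.67 and 2.9996 and than in cushion cells by 0.95 and 0.90, whereas Col6a3 was higher than in epicardial (3.61) and lower than in cushion cells (-1.87). Over 14 fibrillar and beaded collagens, 6 were higher and 5 lower against epicardial cells, where 31% and 32.1% of all genes were, and 8 higher and 5 lower against cushion cells, where 24.9% and 24.3% of all genes were. Fn1, which encodes fibronectin, was lower than in epicardial cells (-0.78) and higher than in cushion cells (1.02).

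Dcn, decorin, averaged 968 ± 134 CPM in fibroblast-like and 256 ± 70.7 CPM in cushion cells (log2 difference 1.93). Lum, lumican, was the other way round, at 223 ± 10.3 CPM in fibroblast-like and 766 ± 97.5 CPM in cushion cells (-1.78). Of 20 proteoglycan and hyaluronan genes, 13 were higher and 7 lower than in epicardial cells, and 6 higher and 12 lower than in cushion cells. Of 21 basement membrane genes, 7 were higher and 11 lower than in epicardial cells, and 12 higher and 8 lower than in cushion cells. Over all genes, 31% were higher and 32.1% lower than in epicardial cells, and 24.9% and 24.3% than in cushion cells. The share of basement membrane genes higher than in epicardial cells was thus near that of all genes. Lama5, a laminin chain of epithelia, was lower than in epicardial cells by -6.09, while Lama4, a chain of mesenchymal and vascular basement membranes, was higher by 2.30.

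Acta2, smooth muscle actin, was at 234 and 713 CPM in KO and 403 and 551 CPM in het fibroblast-like cells, against 27.5 and 48.0 CPM in KO and 42.6 and 49.9 CPM in het epicardial cells (log2 difference 3.44, SE 0.113). It was also higher than in cushion cells (1.10, SE 0.125), but there the fibroblast-like sum of KO 1 overlapped the cushion sums, which reached 264 CPM. Tagln, an actin-binding protein of smooth muscle, was higher than in epicardial cells (2.51) and did not pass against cushion cells (-0.04, SE 0.125). Of 13 mural and smooth muscle markers, 8 were higher and 4 lower than in epicardial cells (all genes 31% and 32.1%). Of 12 tested against cushion cells, 2 were higher and 6 lower (all genes 24.9% and 24.3%). The pericyte genes Rgs5 (12.4 ± 4.55 CPM, SD, n = 4) and Abcc9 (11.97 ± 4.298 CPM, SD, n = 4) were lower than in cushion cells, by -0.70 and -1.12, with overlap between the sums of the populations.

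In the retinoic acid pathway a dehydrogenase makes the acid, nuclear receptors bind it to turn on target genes, and CYP26 enzymes break it down. Aldh1a2, the synthesis gene, was low in fibroblast-like cells beside epicardial cells, as given above. Rarb, a receptor and a target of the pathway, was at 54.9 and 54.4 CPM in KO and 55.9 and 51.8 CPM in het fibroblast-like cells, against 19.4 and 20.6 CPM in KO and 18.5 and 21.8 CPM in het epicardial cells (log2 difference 1.42, SE 0.0800). Against cushion cells, at 20.6 ± 3.74 CPM, it was higher by 1.40 (SE 0.0999). Cyp26b1, which degrades the acid, was higher by 3.73 and 3.91. Dhrs3, a reductase that turns retinaldehyde back to retinol, was higher by 3.60 and 3.41. In all 3 of these genes every fibroblast-like sum lay above every epicardial and cushion sum. Over the list, 8 of 15 genes were higher and 4 lower than in epicardial cells (median 0.67, all genes 31% and 32.1%). Against cushion cells, 9 of 16 were higher and 5 lower (median 0.56, all genes 24.9% and 24.3%). With thinned cells, 5 instead of 9 were higher than in cushion cells, where 1680 of all 9635 genes tested were.

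The Rarb promoter is shown because it holds a known kind of retinoic acid response element, a direct repeat of 2 half-sites. The sequence is RefSeq's, 250 bases before to 50 after the start, build GRCm38.p6, minus strand, chr14:16575427-16575726, with both GTTCA half-sites in capitals:
Rarb promoter: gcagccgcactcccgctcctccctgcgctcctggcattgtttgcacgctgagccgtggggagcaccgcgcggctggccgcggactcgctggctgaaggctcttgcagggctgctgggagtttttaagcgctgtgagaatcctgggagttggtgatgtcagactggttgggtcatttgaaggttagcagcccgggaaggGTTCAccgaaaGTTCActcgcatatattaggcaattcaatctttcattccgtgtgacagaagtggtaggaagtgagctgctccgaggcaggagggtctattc
The repeat, searched on both strands as GTTCA, 6 bases of any kind and a further GTTCA, lies 52 to 37 bases before the start. It was found in 25 of 32851 promoters of the same length (0.0761%), and in promoters of 2 of 15 retinoic acid genes that the RefSeq table held. These are letters in a window, and binding was not measured.

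Of 12 Notch genes, 8 were higher and 3 lower than in epicardial cells (median 1.39, all genes 31% and 32.1%). Against cushion cells, 2 were higher and 7 lower (median -0.46, all genes 24.9% and 24.3%). The receptor gene Notch1 averaged 32.1 ± 6.70 CPM in fibroblast-like and 3.98 ± 3.57 CPM in epicardial cells (log2 difference 3.29), and it was lower than in cushion cells, at 114 ± 22.4 CPM there (-1.79). Nrarp, a target and inhibitor of Notch, showed the same order (3.48 and -2.34).

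Wnt genes were mostly lower than in cushion mesenchyme, 18 of 27 with 4 higher (median -0.30, all genes 24.3% lower and 24.9% higher). Against epicardial cells, 15 of 31 were lower and 9 higher (all genes 32.1% lower and 31% higher). The share higher than in epicardial cells was near that of all genes. Axin2, a feedback target of canonical Wnt signalling, was lower than in cushion cells by -3.17 and than in epicardial cells by -1.27. The secreted regulators Notum (-3.71) and Dkk2 (-4.03) were lower than in cushion cells too. Sfrp1, a secreted Wnt antagonist, was the other way, higher than in cushion cells by 0.76.

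Of 31 BMP and TGF-beta genes, 21 were lower and 3 higher than in cushion mesenchyme (median -0.49, all genes 24.3% and 24.9%). Against epicardial cells, 16 of 32 were higher and 12 lower (median 0.22, all genes 31% and 32.1%). The ligand genes Bmp2 (-1.90), Tgfb1 (-1.26) and Tgfb2 (-0.86) and the target genes Id1 (-0.95) and Smad7 (-0.84) were among those lower than in cushion cells. The 3 higher genes were Acvrl1, a type I receptor best known from endothelium, Gdf10, a TGF-beta family ligand, and Bmp4. Acvrl1 averaged 28.3 ± 1.90 CPM in fibroblast-like and 1.35 ± 0.43 CPM in cushion cells (log2 difference 4.36) and was also higher than in epicardial cells (3.31). The 13 endothelial markers, 3 of them limited by the rule, summed to 140 and 120 CPM in KO and 129 and 119 CPM in het fibroblast-like cells, against 192 and 168 CPM in KO and 204 and 145 CPM in het cushion cells.

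Of 15 FGF genes, 8 were higher and 5 lower than in epicardial cells, and of 13 tested against cushion cells 6 were higher and 6 lower. Of 5 PDGF genes, 2 were higher and 3 lower than in epicardial cells, and 1 higher and 3 lower than in cushion cells. Over all genes, 31% were higher and 32.1% lower than in epicardial cells, and 24.9% and 24.3% than in cushion cells. Fgf9 and Pdgfa, ligands made by the epicardium, were lower than in epicardial cells by -5.38 and -3.99. The receptor genes Fgfr1, Fgfr2 and Pdgfrb were higher than in epicardial cells by 2.20, 1.75 and 2.22; Fgfr1 was higher (0.53) and Fgfr2 (-1.51) and Pdgfrb (-0.90) lower than in cushion cells. Etv4, a target of FGF signalling, was higher than in epicardial cells by 4.75 and lower than in cushion cells (-0.49). Igf1, an insulin-like growth factor, averaged 74.9 ± 14.1 CPM in fibroblast-like and 373 ± 71.6 CPM in cushion cells (-2.30). Slit2, a secreted guidance ligand, was above both populations (1.63 and 2.40), whereas Slit3 was below epicardial (-3.23) and above cushion cells (4.17). Angpt1, the ligand of the Tie2 receptor, was lower than in cushion cells by -4.43.

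Genes of glycolysis and of the response to low oxygen were mostly higher than in cushion mesenchyme. Of 24, 19 were higher and 2 lower (all genes 24.9% and 24.3%), with a median log2 difference of 1.12. Pgk1, a glycolytic kinase, was at 604 and 672 CPM in KO and 534 and 593 CPM in het fibroblast-like cells, against 215 and 244 CPM in KO and 191 and 226 CPM in het cushion cells (1.45, SE 0.0369). Ldha, lactate dehydrogenase, was higher by 1.27, Slc16a3, a lactate exporter, by 1.58 and Adm, the peptide adrenomedullin, by 6.16. The 2 lower genes were Pfkp (-0.29) and Egln3 (-0.90), an oxygen-sensing hydroxylase. Against epicardial cells the same list was mixed, with 6 of 25 higher and 12 lower (median -0.18, all genes 31% and 32.1%). Slc2a1, the glucose transporter GLUT1, was lower than in epicardial cells, at 44.3 and 46.8 CPM in KO and 30.7 and 36.8 CPM in het fibroblast-like cells and at 199, 216, 148 and 192 CPM in epicardial cells of KO 1, KO 2, het 1 and het 2 (log2 difference -2.26).

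Cell cycle genes were higher in the fibroblast-like cells than in either population. Of 37 G2/M genes, which peak around mitosis, 37 were higher than in epicardial cells (median 1.28) and 32 higher than in cushion cells (median 0.35). Of 31 G1/S genes, 29 were higher and 1 lower in each comparison (medians 0.86 and 0.48). Over all genes, 31% were higher than in epicardial and 24.9% than in cushion cells. Without the library as a block, 21 of the G2/M genes passed as higher than in cushion cells, where 2272 of all 14287 genes did. Per cell, at an equal depth of 3000 UMIs, at least 10 UMIs of G2/M genes were found in 52.0% and 50% of KO and 56.8% and 47.8% of het fibroblast-like cells. The same share was 28.1% and 20.1% in KO and 25.9% and 15.3% in het epicardial cells, and 36.0% and 30.2% in KO and 43.8% and 28.9% in het cushion cells. The fibroblast-like share was higher in 4 of 4 libraries in both comparisons, by a mean of 29.3 and 16.9 percentage points (two-sided exact sign-flip permutation p = 0.125 each, the smallest that 4 pairs can give; adjusted p = 0.188 over 6 tests). The rule asks for several UMIs of marker genes and so favours deep cells. With all 3 rules applied to cells already thinned to 3000 UMIs the differences were 28.6 and 16.1 points. Between genotypes the share did not differ beyond the spread of the libraries (51.0 ± 1.40% in KO and 52.3 ± 6.35% in het, SD, n = 2 each; exact permutation p = 1).

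Of 24 genes of the response to dissociation and stress, 17 were lower and 6 higher in fibroblast-like than in epicardial cells (median -1.10). In the cushion comparison 11 were lower and 5 higher (median 0.03). Over all genes, 32.1% were lower and 31% higher than in epicardial cells, and 24.3% and 24.9% than in cushion cells. Of 10 erythroid markers, 8 were higher than in epicardial cells (median 1.05) and 0 passed against cushion cells. All 10 overlapped between fibroblast-like and epicardial sums, and in het 1 their sum was lower in fibroblast-like cells, at 21621 CPM against 29281 CPM in epicardial cells. The part of either in the differences above was not tested.

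**Figure D3:**
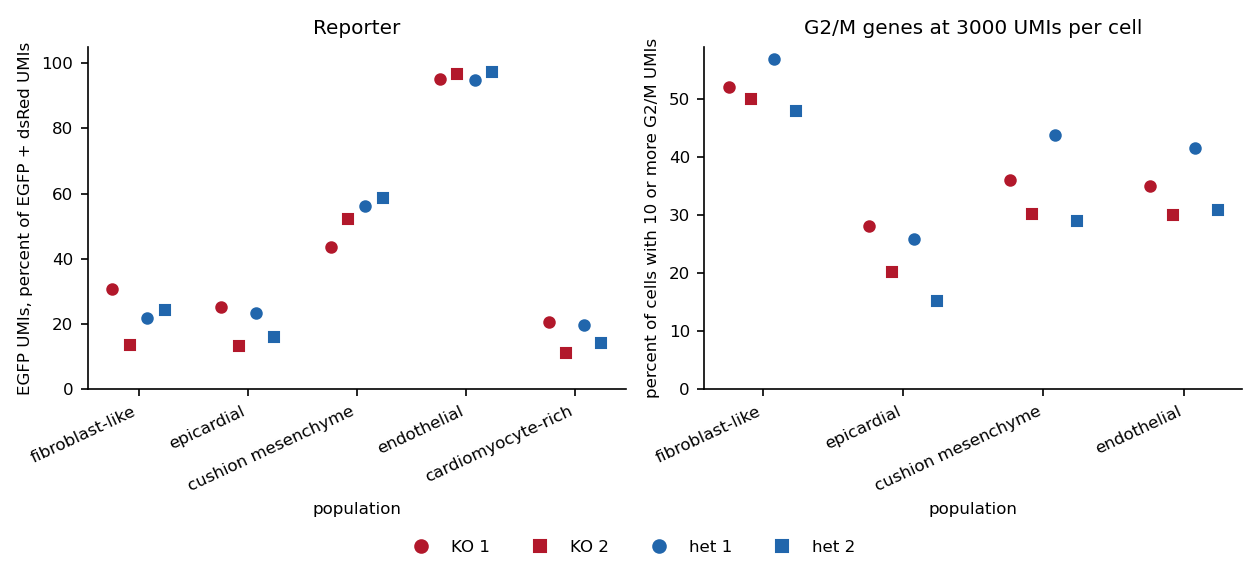
Left, EGFP UMIs as percent of EGFP plus dsRed UMIs summed over the cells of each population; right, percent of cells with at least 10 UMIs of G2/M genes after thinning to 3000 UMIs. Each point is 1 library, KO red and het blue. Fibroblast-like cells lie near epicardial and cardiomyocyte-rich cells in EGFP (13.5% to 30.6%) and above the other populations in G2/M share (47.8% to 56.8%).

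The mTmG reporter, which the rule did not use, gave a reading of Cre history. EGFP made up 30.6% and 13.5% of reporter UMIs in KO and 22.0% and 24.3% in het fibroblast-like cells. In endothelial cells of the 4 libraries it was 94.9% to 97.5%. Cardiomyocyte-rich cells, which do not descend from endothelium, gave 20.7% and 11.1% in KO and 19.8% and 14.0% in het. Erythroid-rich cells (at least 30% globin UMIs) gave 37.6% and 44.4% in KO and 65.8% and 56.8% in het. The percent also depends on the dsRed level, 177 to 333 CPM in cardiomyocyte-rich and 324 to 450 CPM in fibroblast-like cells. A background level common to all populations was not measured. Cushion mesenchyme gave 43.8% and 52.2% in KO and 56.3% and 58.5% in het. The fibroblast-like value was lower than that of cushion cells in 4 of 4 libraries, by 30.1 percentage points on average (two-sided exact sign-flip permutation p = 0.125, the smallest possible; adjusted p = 0.313 over 5 tests). It was 3.21 points above epicardial cells (higher in 3 of 4 libraries, exact p = 0.375) and 6.20 points above cardiomyocyte-rich cells (4 of 4, exact p = 0.125). KO and het did not differ beyond the spread (22.1 ± 12.1% in KO and 23.1 ± 1.59% in het, exact permutation p = 1), and the sign of the difference of -1.08 points turned when KO 2 (7.47) or het 2 (0.047) was left out.

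Cells were also classed singly. With at least 3 UMIs of a reporter and more of it than of the other as the limit, 338 and 324 cells in KO and 172 and 492 in het were dsRed-dominated, and 19 and 4 in KO and 4 and 16 in het were EGFP-dominated. In cushion mesenchyme dsRed-dominated cells were also the larger class, 70.6% and 80.1% of cells in KO and 51.8% and 71.9% in het, against 74.1% and 89.5% in KO and 74.5% and 88.0% in het fibroblast-like cells. With so few EGFP-dominated fibroblast-like cells, their summed levels are a description. Vcan was at 1446 and 917 CPM in KO and 4456 and 1445 CPM in het EGFP-dominated cells, against 523 and 474 CPM in KO and 482 and 501 CPM in het dsRed-dominated ones, higher in 4 of 4 libraries. Sox9 was higher in 3 of 4 and lower in KO 2, at 188 CPM in EGFP-dominated and 243 CPM in dsRed-dominated cells. Wt1 was lower in 4 of 4 libraries, at 39.0 and 0 CPM in KO and 42.0 and 12.3 CPM in het EGFP-dominated cells, against 102 and 101 CPM in KO and 97.9 and 79.6 CPM in het dsRed-dominated ones. Tbx18 had no common direction, at 71.4 and 254 CPM in KO and 84.1 and 120 CPM in het EGFP-dominated cells, against 77.3 and 76.1 CPM in KO and 86.8 and 75.2 CPM in het dsRed-dominated ones. Scrublet marked 2 of the 19 and 1 of the 16 as doublets.

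In each library, the 10% of cells with most Acta2 UMIs, after thinning, held 58.6% and 52.1% of all Acta2 UMIs in KO and 54.2% and 57.1% in het. For Postn, a matricellular protein of cushions and fibroblasts, the share was 52.8% and 44.8% in KO and 56.8% and 48.4% in het. Vcan gave 50.9% and 51.6% in KO and 62.0% and 52.0% in het. The share also depends on how many UMIs a gene has. Cks1b, a cell cycle gene, had 331 thinned UMIs in KO 1 and 223 in het 1, close to the 338 and 253 of Acta2. It gave 37.2% in KO 1 and 33.6% in het 1. Other genes with similar UMI numbers in KO 1 spread widely: Igfbp4 (340 UMIs) gave 36.5%, Lum (334) 50%, Cenpf (377) 57.0% and Ube2c (310) 60%. The Acta2 share in KO 1 thus lay within the range of genes with similar UMI numbers.

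The last comparison set KO against het fibroblast-like cells, which asks whether loss of Gata4 in endothelium changes these neighbours. The targeted gene Gata4 was at 104 and 88.6 CPM in KO and 96.2 and 90.7 CPM in het fibroblast-like cells (log2 difference 0.04, SE 0.151; TMM-scaled within this comparison, as below). In endothelial cells, where the recombinase acts, the difference was 0.58 (SE 0.151) and did not pass (adjusted p = 0.710, edgeR). The labels do not say which exons are floxed, and the counts come from 3′ ends of transcripts, so neither value checks the deletion. Neil2, a DNA repair gene next to Gata4, was at 4.49 and 2.16 CPM in KO and 1.91 and 2.69 CPM in het, and FloxGata4_ctrl, a sequence added to the authors' annotation, at 3.55 and 1.31 CPM in KO and 3.39 and 2.23 CPM in het; both overlapped between groups.

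No gene passed: 0 of 14639 genes (0%) had an adjusted p under 0.05 in edgeR's quasi-likelihood test, and 137 (0.936%) had an unadjusted p under 0.05. The share of 0.936% is below what a limit of 0.05 gives when no gene differs, and the reason was not tested. DESeq2 called 3 genes and limma-voom 0. With the replicate number as a block, edgeR called 46 genes, and 666 had an unadjusted p under 0.05. The labels do not say whether these numbers pair the libraries. With 1 library left out, so that a lone library is assumed to vary like the other group's, edgeR called 72 genes without KO 1, 128 without KO 2, 49 without het 1 and 41 without het 2. In 1655 genes (11.3%) both KO libraries lay above both het libraries and in 1353 (9.24%) below. Several genes described above overlapped between the groups. Tbx18 was at 79.9 and 81.0 CPM in KO and 83.7 and 77.4 CPM in het, Col3a1 at 2706 and 2467 CPM in KO and 2660 and 2418 CPM in het, and Rarb at 55.3 and 54.8 CPM in KO and 56.4 and 52.1 CPM in het. Acta2 spread widely within both groups, at 236 and 718 CPM in KO and 406 and 554 CPM in het. No fibrillar or beaded collagen of 14 and no basement membrane gene of 20 had its groups apart.

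In 12 of 25 genes of glycolysis and low oxygen both KO libraries lay above both het libraries, in 13 the groups overlapped and in 0 KO lay below, against the 11.3% above over all genes, and the list's median log2 difference was 0.21 against 0.00 over all genes. Bnip3, a mitophagy protein induced by low oxygen, was at 124 and 116 CPM in KO and 80.1 and 91.7 CPM in het (log2 difference 0.48, SE 0.149). Slc2a1 was at 44.7 and 47.1 CPM in KO and 30.9 and 37.0 CPM in het (0.42, SE 0.156), and Vegfa, a growth factor for blood vessels, at 77.6 and 57.5 CPM in KO and 47.3 and 48.9 CPM in het (0.49, SE 0.174). Those 3 genes with Pdk1 and Egln3 had unadjusted p-values between 0.0120 and 0.0398 and adjusted p-values of 0.999953 in edgeR. The same list gave 10 of 24 in epicardial cells (41.7%, where 16.3% of all genes were above), 11 of 25 in endothelial cells (44%, all genes 13.8%) and 4 of 23 in cushion mesenchyme (17.4%, all genes 10.9%), populations that share libraries with the fibroblast-like cells. Of 29 oxidative phosphorylation subunits, 0 were above and 3 below, the latter near the 9.24% of all genes below. In epicardial cells 0 were above and 15 below, where 2083 of all 13718 genes were below. In endothelial cells 0 were above and 2 below, and in cushion mesenchyme 1 was above and 1 below.

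**Figure D4:**
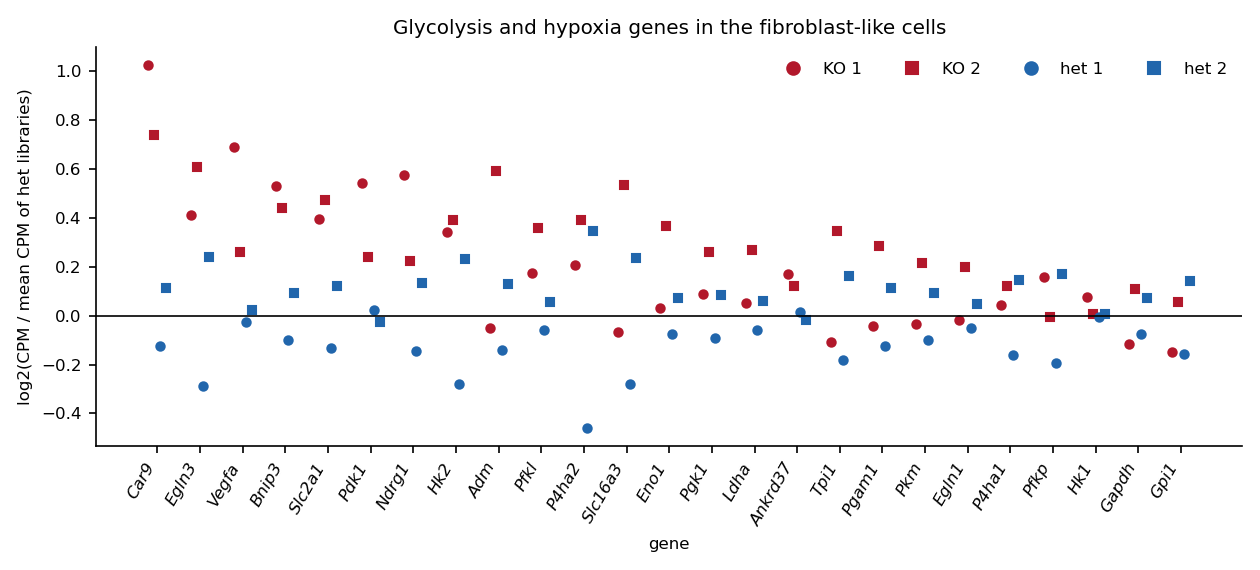
Level of 25 glycolysis and hypoxia genes in fibroblast-like cells of each library, as log2 of CPM over the mean of both het libraries (y axis; KO red, het blue; points stand for libraries and the line for the het mean). In 12 genes, Bnip3, Slc2a1 and Vegfa among them, both KO points lie above both het points, and no gene of the list passed the adjusted test.

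The promoters of Bnip3 and Slc2a1 are shown for the ACGTG core that hypoxia-inducible factors recognise, in capitals, again RefSeq's 300 bases in build GRCm38.p6. Bnip3 lies on the minus strand of chr7:138909457-138909756 and Slc2a1 on the plus strand of chr4:119108495-119108794.
Bnip3 promoter: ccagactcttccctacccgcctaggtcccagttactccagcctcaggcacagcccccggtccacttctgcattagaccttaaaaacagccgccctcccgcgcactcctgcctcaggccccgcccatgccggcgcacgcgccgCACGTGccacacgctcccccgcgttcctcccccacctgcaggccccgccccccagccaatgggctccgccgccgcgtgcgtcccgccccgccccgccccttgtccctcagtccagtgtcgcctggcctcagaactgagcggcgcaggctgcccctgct
Slc2a1 promoter: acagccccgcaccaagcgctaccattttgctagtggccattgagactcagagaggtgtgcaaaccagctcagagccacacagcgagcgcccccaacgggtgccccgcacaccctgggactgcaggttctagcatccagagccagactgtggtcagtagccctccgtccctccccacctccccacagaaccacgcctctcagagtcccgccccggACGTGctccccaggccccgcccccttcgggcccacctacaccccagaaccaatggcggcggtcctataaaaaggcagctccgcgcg
In Bnip3 the motif begins 108 bases before the start and overlaps its own reverse complement, and in Slc2a1 it lies 36 to 32 bases before the start. Searched on both strands, ACGTG was in 6447 of 32851 promoters (19.6%) and in 19 of 34 promoters of the glycolysis and hypoxia list (55.9%), which belong to 25 genes. The motif is short and common, and the count is a description.

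The summed level of 10 erythroid markers overlapped between the groups, at 47311 and 7398 CPM in KO and 21621 and 20255 CPM in het fibroblast-like cells, with KO 2 the lowest library. Singly, 4 of the 10 had both KO libraries above both het libraries, against 11.3% of all genes, and 6 overlapped (median log2 difference 0.64). The 4 include Slc4a1, a red cell anion exchanger. The 10 genes of lowest unadjusted p on the KO side with groups apart held Slc4a1, Car2 and Slc25a37, all highly expressed by red cell precursors, beside Cd24a, Mt1, Bnip3, Ssx2ip, Vegfa and Slc2a1 among others. Mt1, a metallothionein that responds to metals and stress, was at 102 and 55.5 CPM in KO and 22.0 and 40.3 CPM in het (log2 difference 1.29, SE 0.335). On the other side were Mxd3, Gadd45g, Serping1, Cpe, Chmp2b, Fndc5, Creld2, Inhba, Cnn1 and Scamp2, with log2 differences from -0.68 to -0.35. Serping1, an inhibitor of complement, was at 86.0 and 82.5 CPM in KO and 110 and 104 CPM in het. Xist, made from the inactive X chromosome of female cells, was at 569 and 797 CPM in KO and 475 and 176 CPM in het, and the Y-linked gene Ddx3y at 32.5 and 0 CPM in KO and 39.0 and 58.9 CPM in het. Sex-linked RNA thus differed between libraries and with the groups, and its part in any KO and het difference cannot be told apart from genotype here.

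The difference between KO and het was compared between fibroblast-like cells and cushion mesenchyme in 1 edgeR model with 8 sums. Of 15241 genes, 2 (0.0131%) passed. Ifi27l2a, an interferon-inducible gene, was at 29.3 and 71.5 CPM in KO and 32.9 and 57.4 CPM in het fibroblast-like cells, and at 1.28 and 2.33 CPM in KO and 5.08 and 12.9 CPM in het cushion cells. In fibroblast-like cells the groups overlapped, whereas in cushion cells both KO values lay below both het values (difference of log2 differences 2.55, SE 0.257; adjusted p = 0.00546, edgeR). Without het 2 it did not pass (2.13, adjusted p = 0.523 in edgeR). The count itself was 45 without KO 1, 18 without KO 2 and 1 without either het library. The second was the adult beta-globin gene Hbb-bs, a red cell transcript (1.16). The next genes by p were Wfdc18, Klf1, Cd24a and Osr1 on the positive side and Mgp, Tnc, Sfrp1, Lyve1 and Tubb3 on the negative side. For Cd24a the values were 41.4 and 30.8 CPM in KO and 17.1 and 21.7 CPM in het fibroblast-like cells, against 63.8 and 44.7 CPM in KO and 66.6 and 54.9 CPM in het cushion cells.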

How the data were processed

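Gene by barcode matrices of UMI counts were used as deposited for 4 libraries of 10x 3′ single-cell RNA-seq; per the file headers they came from Cell Ranger 6.0.1, and the submitters' processing notes name mm10 and Seurat. The labels name both a v2 3′ protocol and Chromium Next GEM. The cells and gene lists were chosen with earlier results of these data known, so neither is independent support. UMIs were summed per library and population, filtered with filterByExpr (10 counts, 15 in total), scaled by TMM and tested with edgeR 4.0.16 in R 4.3.3 over all genes with Benjamini-Hochberg adjustment; genes of a rule were left out of its tests. DESeq2 1.42.0, limma 3.58.1, other filters, stricter and looser rules, doublet removal (Scrublet in scanpy 1.11.5), thinning to 3000 UMIs and leaving out each library were alternatives. Exact permutation tests used scipy 1.17.1. Intervals cover counting error only. Named genes were, between populations, the 12 per direction of largest difference with at least 50 CPM; between genotypes, Gata4, Neil2, added sequences and, as fewer than 10 passed, the 10 per direction of lowest p with groups apart and at least 20 CPM; 5 per direction of the interaction; the 20 highest levels; and up to 5 of lowest p in each list. Genes of a rule, sex-linked, globin, mitochondrial and ribosomal genes were not eligible outside the lists. Other genes named were chosen after their values were seen. Some genes that this rule names are not reported here.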

Additional observations from a re-analysis of the deposited data

Results flagged for a closer look

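The KO minus het difference of Ifi27l2a differed between fibroblast-like cells and cushion mesenchyme in a test of that difference itself, by 2.55 on the log2 scale (edgeR, adjusted p = 0.00546). Levels were lower in KO than in het in cushion mesenchyme and overlapped in fibroblast-like cells, and the call was lost without het 2.

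Hbb-bs differed in the same test by 1.16 on the log2 scale. The gene was at 6286 and 2735 CPM in KO and 2037 and 1288 CPM in het fibroblast-like cells, against 4375 and 1416 CPM in KO and 2617 and 1801 CPM in het cushion cells, and haemoglobin RNA in these cells ranged from 0.736% to 4.72% of UMIs over the 4 libraries. The part of red cell RNA in the droplets was not tested.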

How the results depend on the processing

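Between KO and het fibroblast-like cells, 0 genes passed with DESeq2's size factors, limma-voom, stricter and looser rules, doublets left out or thinned cells, while DESeq2 called 3 and edgeR without a filter on low counts 51. The replicate numbers were shared between the groups, but with only 2 pairs nothing in the labels says that they pair the libraries; deviations of replicate 1 correlated between the groups (r = 0.605 over 6578 genes, across genes, which are not independent), and a fit with the replicate number as a block called 46. Leaving out 1 library gave 41 to 128 calls. The cause of these changes was not tested. Inhba, lower in KO, turned to 0.063 on the log2 scale under the stricter rule.

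Against epicardial cells, calls numbered 3558 with thinned cells, which hold fewer UMIs, 3279 with a fold of at least 2 (a limit chosen after seeing the data), and 7828 to 8824 with 1 library left out. Against cushion mesenchyme they numbered 3297 with thinned cells, 1801 with the fold limit, 4601 without the library block and 5782 to 6691 with 1 library left out. All 24 genes named in each of these comparisons kept their direction and their call in the 288 values computed for them. The interaction count was 41 without a filter and 1 to 45 with 1 library left out. The difference in share ranged from -0.745 to 6.04 points with 1 library left out, and turned negative without het 1. The difference in EGFP ranged from -9.62 to 7.47 points, and turned positive without KO 2 (7.47) and without het 2 (0.047). Depth limits genes of few UMIs most in het 1.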
